A study of Mus musculus with 60 samples.

Results

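The potassium channel genes are the transcripts whose mouse symbol starts with Kcn, the stem shared by pore-forming and auxiliary subunits of potassium channels, followed by a family letter and a number. The rule found 77 of them among the 13986 genes held in any of 10 tables, and 72 are in all 10. The 5 others were each held in some tables only. Kcne2 is in the ventral Handling table alone, Kcnj13 in 2 tables, and Kcnh8, Kcnmb1 and Kcne4 are missing from others. By symbol they fall into 6 Kv1, 2 Kv2, 4 Kv3, 3 Kv4, 9 electrically silent Kv, 4 KCNQ and 8 EAG, ERG and ELK genes. The others are 7 Kcnma, Kcnn, Kcnt and Kcnu genes, 12 inward rectifier and 9 two-pore channel genes, and 13 genes for auxiliary subunits.

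All groups were wild-type C57BL/6 mice at postnatal day 105, and RNA was enriched for poly(A) before sequencing. Whole, dorsal or ventral hippocampus was taken from untreated Homecage mice or 45 minutes after Handling, Restraint or Swim. This gave 12 groups of 5 libraries. Each table compares 2 groups, either a treatment with Homecage of the same region or ventral with dorsal Homecage. The 3 treatments of a region share its Homecage libraries, and the ventral with dorsal comparison uses the dorsal and ventral ones again. The labels do not say whether dorsal and ventral libraries came from the same mice.

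Potassium channels let potassium leave a neuron, which sets its resting voltage, ends its action potentials and limits how often it fires. Voltage-gated Kv channels open on depolarisation, inward rectifiers and two-pore channels hold the resting voltage, and calcium-activated channels follow firing. In the hippocampus, A-type currents of Kv4 channels in dendrites and the M-current of KCNQ channels are known brakes on pyramidal cells, and astrocytes clear potassium through Kir4.1.

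Levels below are CPM, the authors' deposited mean count of a group divided by the group's total in M (mega), and where genes are compared they are divided by the length of the longest annotated transcript in kilobases. No value per library was used, so a level has no spread. Replicate error can enter only through the authors' adjusted p, with a threshold of 0.05. The standard error (SE) beside a log2 fold change is the one implied by that change and its p. In bulk tissue, fewer cells of a type and less RNA per cell cannot be told apart. Group means summed to between 19.9M and 25.0M counts. Of the 11 early response genes, 8 to 11 were higher in each of the 9 treatment tables. Markers of hippocampal neurons were present, with 8 of 8 for dentate granule cells, 8 of 8 for CA1 and 8 of 8 for CA2 and CA3 measured in the ventral against dorsal table.

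The potassium channel message of the resting hippocampus was led by auxiliary subunits. In whole Homecage tissue Kcnab2, a Kv beta subunit, had the highest level at 176 CPM per kb, and the Kv4 partner Kcnip2 (KChIP2) was at 65.6 CPM per kb. The axonal Kv1 channel gene Kcna1 was at 57.3 CPM per kb. The astrocyte inward rectifier Kcnj10 (Kir4.1) reached 36.1, Kcnab1 35.4 and Kcnip3 33.3 CPM per kb. Auxiliary genes made up 35.0% of the summed per-length level, inward rectifiers 13.3% and the 4 KCNQ genes 12.3%. The lowest measured were Kcne4 at 0.30, Kcnj13 at 0.33 and Kcna5 at 0.35 CPM per kb. The median over 74 genes with a level was 5.04 CPM per kb, against 7.58 over all genes.

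**Figure D1:**
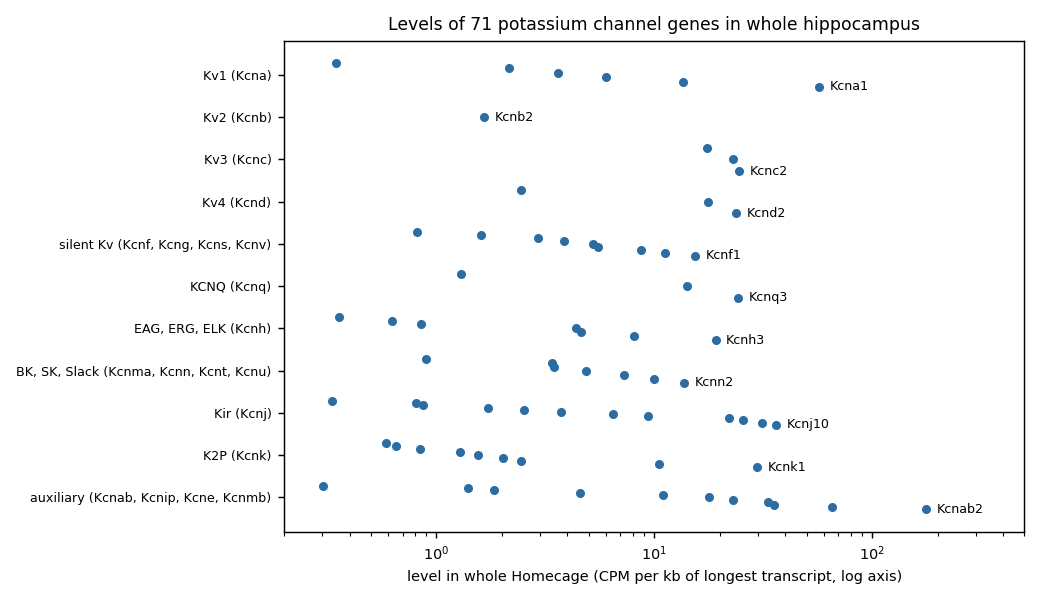
Level of 71 potassium channel genes in whole Homecage hippocampus, as CPM per kb of the longest transcript on a log axis, 1 point per gene and 1 row per family, with the highest gene shown of each family named. Levels run from 0.30 for Kcne4 to 176 for Kcnab2.

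The genes named next each had the highest level of their family. Kcnh3, an ELK-type channel gene, reached 19.1 CPM per kb and Kcnk1 (TWIK-1), a two-pore channel gene, 29.7 CPM per kb. The small-conductance calcium-activated channel gene Kcnn2 led its family at 13.7 CPM per kb. Kcnd2 (Kv4.2), the main dendritic A-type channel of pyramidal cells, was at 23.6 CPM per kb, and Kcnf1, a subunit that forms no channel alone and modifies Kv2 channels, at 15.4 CPM per kb. The 10 highest genes were the same when merged exon length replaced the longest transcript.

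Dorsal and ventral hippocampus differed in many of these genes at rest. In the authors' deposited table of Homecage mice, 46 of 73 potassium channel genes passed the test, 22 higher and 24 lower in ventral tissue. That is 63.0%, against 38.4% of all genes, with 30.1% higher against 18.4% and 32.9% lower against 20.0%. The median absolute log2 difference was 0.39 for these genes and 0.16 for all genes. The median count was 758 for these genes and 631 for all genes, and the part of that difference in the higher share was not tested.

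Among inward rectifiers, which hold the resting voltage, 4 of 11 were higher (18.4% of all genes) and 5 lower (20.0% of all genes) in ventral tissue. Kcnj16 (Kir5.1), which pairs with Kir4.1 in astrocytes, was at 11.7 CPM in dorsal and 29.7 CPM in ventral Homecage, the highest of all members by log2 ratio at 1.32 (SE 0.19, adjusted p 7.2e-11) in the authors' deposited table. Its neighbour on chromosome 11, Kcnj2 (Kir2.1), the classical strong inward rectifier, was lower in ventral tissue, at 14.8 CPM in dorsal and 9.63 CPM in ventral (log2 -0.66, SE 0.15, adjusted p 3.5e-05 in the authors' deposited table). Kcnj12 (Kir2.2) had the opposite sign to Kcnj2, at 0.72 in the authors' deposited table. Of the G protein-gated channels, Kcnj9 (GIRK3) was higher by 0.39 and Kcnj6 (GIRK2) was at -0.73 in the authors' deposited table. Kcnj10 gave -0.03 there (adjusted p 0.85 in the authors' deposited table).

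Of the electrically silent subunits, 2 of 9 were higher (18.4% of all genes) and 3 lower (20.0% of all genes). Kcnf1 had the lowest adjusted p of all members, at 51.8 CPM in dorsal and 107 CPM in ventral tissue (log2 0.99, SE 0.08, adjusted p 2.5e-34 in the authors' deposited table). Kcng1 was higher by 0.58, while Kcng4, at 9.90 CPM in dorsal and 5.00 CPM in ventral, had the lowest ratio of all members at -1.02 (SE 0.13, adjusted p 1.5e-13) in the authors' deposited table. Kcns2 was lower at -0.57 in the authors' deposited table. Kcnv1 gave 0.13 with an adjusted p of 0.174 in the authors' deposited table.

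The channel genes for repolarisation of the action potential showed both directions. Of 4 Kv3 genes, which allow fast spiking, 2 were higher (18.4% of all genes) and 1 lower (20.0% of all genes). The higher ones were Kcnc4 and Kcnc2, by 0.48 and 0.46 in the authors' deposited table. Of the Kv4 genes, Kcnd3 (Kv4.3) was higher by 0.57 and Kcnd2 was lower at -0.54 in the authors' deposited table. Their cytoplasmic partners divided likewise, Kcnip3 at 0.43 and Kcnip2 at -0.55 in the authors' deposited table. Kcnip4 was at -0.32 and the Kv beta genes Kcnab2 and Kcnab1 at -0.68 and -0.56 in the authors' deposited table. Of 6 Kv1 genes, Kcna2, Kcna3 and Kcna6 passed the test upwards and Kcna1 downwards at -0.14 (adjusted p 0.0453) in the authors' deposited table. The Kcna1 call was lost with the trend on GC content or on length subtracted and with total-count scaling.

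Among the M-current genes, Kcnq5 was higher in ventral tissue by 0.63 (adjusted p 4.8e-14) and Kcnq3 was lower at -0.42 (adjusted p 5.4e-06) in the authors' deposited table. Of 7 Kcnma, Kcnn, Kcnt and Kcnu genes, 3 were higher (18.4% of all genes) and 0 lower (20.0% of all genes). They were the sodium-activated Kcnt1 (Slack) at 0.76, the small-conductance Kcnn3 at 0.54 and the large-conductance Kcnma1 (BK) at 0.42 in the authors' deposited table. BK auxiliary genes differed from each other, Kcnmb2 at 0.55 and Kcnmb4 at -0.32 in the authors' deposited table. Of 9 two-pore leak channel genes 1 was higher and 4 were lower, including Kcnk1 at -0.72 and the mechanically gated Kcnk2 (TREK-1) at -0.47 in the authors' deposited table. Of 7 EAG, ERG and ELK genes 1 was higher, the low-level Kcnh6 at 1.07, and 3 were lower in the authors' deposited table. No family count was tested against the shares of all genes.

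**Figure D2:**
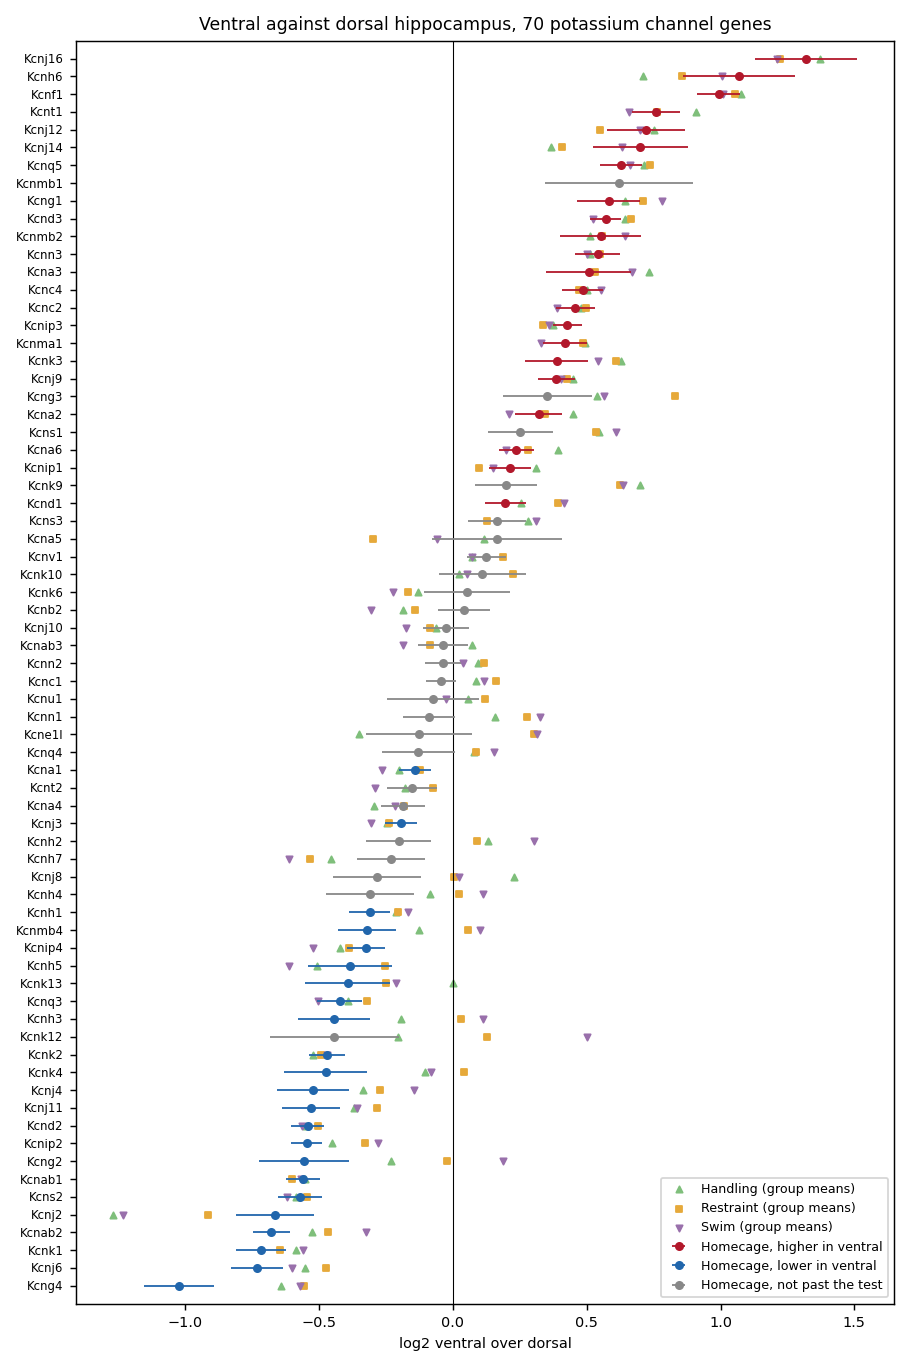
Log2 ratio of ventral over dorsal hippocampus for 70 potassium channel genes, ordered by the authors' deposited value in Homecage mice (circles, with the implied SE as bars). Triangles and squares give the ratio of group means in the treated mice. Of all 46 genes past the test in Homecage mice, 41 kept their direction in all 3 treated conditions.

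The treated mice give other libraries of the same regions. Of the 46 genes past the test at rest, 41 had the same direction in the ratio of ventral to dorsal group means after each of the 3 treatments (89.1%, against 81.3% of 5099 genes in all). The exceptions were Kcng2, Kcnh3, Kcnk13, Kcnk4 and Kcnmb4. Of these, Kcng2, Kcnh3, Kcnk13 and Kcnk4 lost their Homecage call with the trend on GC content subtracted. Spearman's rho of the ventral over dorsal ratio on transcript GC content was -0.37 over all genes in Homecage. It was -0.08, -0.02 and 0.29 after Handling, Restraint and Swim. Over the potassium channel genes rho was -0.01, 0.14, 0.16 and 0.33 in the same order of conditions. The part of GC content in the exceptions was not tested. Kcnf1 gave 1.08, 1.05 and 1.01 after Handling, Restraint and Swim on the log2 scale, and Kcnj16 gave 1.37, 1.22 and 1.21. Kcng4 was at -0.64, -0.56 and -0.57. Kcnj2 was at -1.27, -0.91 and -1.23.

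Markers of cell types differed between the regions too. In that authors' deposited table of Homecage mice, 8 of 8 dentate granule cell markers (median log2 -1.16), 7 of 8 CA2 and CA3 markers (-0.46) and 12 of 12 oligodendrocyte markers (-0.56) were lower in ventral tissue, as were 6 of 8 microglial markers (-0.32). Of the CA2 and CA3 markers 1 was higher. Neocortex layer markers were higher in 6 and lower in 1 of 8 cases (0.70), and 6 of 8 neuron markers were higher and 2 lower (0.24) in the authors' deposited table. CA1 markers were higher in 3 and lower in 4 of 8 cases (-0.28). Interneuron markers were higher in 4 and lower in 1 of 8 cases (0.12). The part of these cell types in the potassium channel differences was not tested. Astrocyte markers, for the cells that hold Kir4.1 and Kir5.1, were higher in 1 and lower in 1 of 10 cases (0.07) in the authors' deposited table.

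Treatment moved few potassium channel genes. In whole hippocampus 0 of 73 passed the test by the authors after Handling (0.395% of all genes), and 2 of 73 had an unadjusted p under 0.05, or 2.74% against 5.06% of all genes. After Restraint 1 of 74 passed (0.541% of all genes) and after Swim 1 of 73 (0.395% of all genes), and in both tables it was Kcnj2, lower. In dorsal tissue none passed. The count was 0 of 74 after Handling (0.125% of all genes), 0 of 74 after Restraint (0.616%) and 0 of 73 after Swim (0.447%) by the authors' test. At an unadjusted p under 0.05 there were 1 after Handling (1.35% against 2.84% of all genes), 10 after Restraint (13.5% against 9.60%) and 9 after Swim (12.3% against 11.2%). In ventral tissue 2 of 76 passed after Handling (0.856% of all genes), 5 of 74 after Restraint (6.76% against 2.39%) and 9 of 74 after Swim (12.2% against 6.94%). These counts include Kcne2 and Kcnj13 after Handling, held through the group where they were high. They also include Kcne4 after Restraint and Swim, which may be held in the same way.

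**Figure D3:**
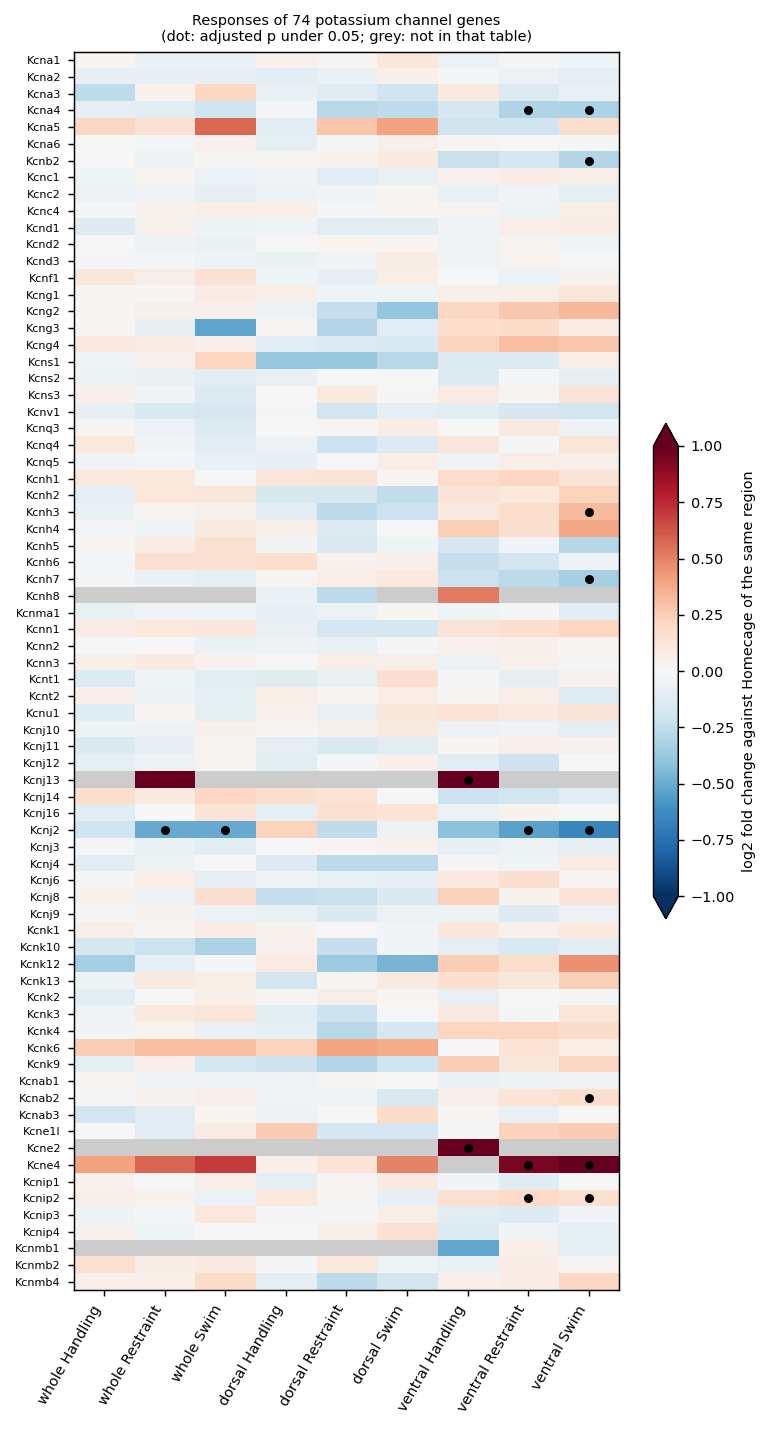
Log2 fold change against Homecage of the same region for 74 potassium channel genes (rows, by family) in 9 treatment tables (columns), as the authors deposited them. Colour is limited to the range from -1 to 1, dots mark an adjusted p under 0.05 and grey marks a gene not held in that table. Dots stand in the whole Restraint and Swim columns for Kcnj2 alone, in no dorsal column, and in all 3 ventral columns.

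Kcnj2 was the member past the test in most treatment tables, 4 of the 9 in which it was measured. It was at 13.8 CPM in whole Homecage tissue, 11.9 after Handling, 9.65 after Restraint and 9.57 after Swim. In ventral tissue the levels were 9.63, 7.21, 6.56 and 6.10 CPM in the same order. In both regions Homecage had the highest group mean. The log2 fold changes in the authors' deposited tables were -0.50 after Restraint (SE 0.10, adjusted p 1.6e-04) and -0.50 after Swim (SE 0.13, adjusted p 0.0325) in whole tissue, and -0.54 (SE 0.14, adjusted p 0.00936) and -0.65 (SE 0.13, adjusted p 1.2e-04) in ventral tissue. After Handling they were -0.20 (adjusted p 0.95) in whole and -0.41 (adjusted p 0.303) in ventral tissue in the authors' deposited tables.

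Dorsal tissue did not share this order. Dorsal Kcnj2 stood at 14.8 CPM in Homecage, 17.4 after Handling, 12.4 after Restraint and 14.3 after Swim. The highest mean was that after Handling. Dorsal log2 fold changes were 0.23 (adjusted p 1), -0.26 (0.512) and -0.05 (0.891) in the authors' deposited tables. The ventral minus dorsal difference in response was -0.60 after Swim (SE 0.18, adjusted p 0.017), -0.28 after Restraint (adjusted p 0.579) and -0.64 after Handling (unadjusted p 9.9e-04, adjusted p 0.725). Subtracting the trend of log2 fold change on transcript GC content ended the calls of whole Swim (-0.44, adjusted p 0.151) and of the regional difference after Swim (-0.37, adjusted p 0.766), and subtracting the trend on length ended that of whole Swim (-0.46, adjusted p 0.0821). The transcript has 41.2% GC.

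Kcna4 (Kv1.4), a fast inactivating A-type channel of axons, was the other member to pass the test downwards in more than 1 table. In ventral tissue it was at 27.6 CPM in Homecage, 24.8 after Handling, 22.2 after Restraint and 22.1 after Swim. Dorsal levels were 30.6, 30.5, 25.2 and 25.6 CPM in the same order, so that Restraint and Swim had the lower means in both regions. The ventral log2 fold changes of -0.30 after Restraint (SE 0.08, adjusted p 0.0105) and -0.32 after Swim (SE 0.08, adjusted p 0.00758) passed, and the dorsal ones of -0.27 (SE 0.08, adjusted p 0.0695) and -0.26 (SE 0.08, adjusted p 0.0952) did not, in the authors' deposited tables. The regions' responses differed by -0.03 after Restraint (SE 0.11, adjusted p 0.956) and -0.06 after Swim (SE 0.11, adjusted p 0.773). With the GC trend subtracted, the dorsal changes passed (-0.32, adjusted p 0.0175 after Restraint and -0.32, adjusted p 0.00775 after Swim) and the ventral Swim change did not (-0.24, adjusted p 0.213). In whole tissue the log2 fold changes were -0.09, -0.11 and -0.20 in the authors' deposited tables, with adjusted p from 0.819 upwards.

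The sequences just before the annotated start of these genes are shown because both were lower after Restraint and Swim in ventral tissue. Each is the 250 bases before the RefSeq start on GRCm38.p6, plus strand, chr2:107290339-107290588 for Kcna4 and chr11:111065914-111066163 for Kcnj2. Capitals mark matches to any of 6 motifs on either strand.
Kcna4: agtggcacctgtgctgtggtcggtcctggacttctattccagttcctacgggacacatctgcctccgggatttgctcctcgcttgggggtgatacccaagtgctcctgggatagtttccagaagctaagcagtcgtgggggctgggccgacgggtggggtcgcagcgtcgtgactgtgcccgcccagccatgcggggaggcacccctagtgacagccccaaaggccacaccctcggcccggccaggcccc
Kcnj2: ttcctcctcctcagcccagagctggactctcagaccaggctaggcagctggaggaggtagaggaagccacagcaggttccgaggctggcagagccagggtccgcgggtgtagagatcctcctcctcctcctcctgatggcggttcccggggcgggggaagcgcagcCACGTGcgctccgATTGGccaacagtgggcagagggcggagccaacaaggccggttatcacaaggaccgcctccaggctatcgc
The motifs searched were the cAMP response element TGACGTCA, the AP-1 site TGANTCA, the glucocorticoid receptor hexamer TGTTCT, the TATA box TATAAA, the E-box CACGTG and the CCAAT box CCAAT, the last pair added after the sequences were read. The Kcnj2 window holds CACGTG starting 84 bases before the start and CCAAT on the reverse strand 71 bases before it. The Kcna4 window holds none of the 6, and its GC content is 65.2% against 65.6% for Kcnj2 and a median of 52.4% over all windows. Of 32851 windows in the table, 1.55% hold the cAMP response element, 6.75% the AP-1 site, 16.1% the receptor hexamer, 12.4% the TATA box, 6.02% the E-box and 33.9% the CCAAT box. The 55 potassium channel genes with an entry have 79 windows. Of these windows, 0 hold the cAMP response element, 3 the AP-1 site (3.80%) and 11 the receptor hexamer (13.9%). The TATA box is in 3 (3.80%), the E-box in 5 (6.33%) and the CCAAT box in 24 (30.4%).

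Kcne4, an auxiliary subunit that inhibits Kv1 channels in heterologous cells, rose with Restraint and Swim in ventral tissue from a low level. It was at 0.69 CPM in ventral Homecage, 1.33 after Restraint and 1.40 after Swim, which are mean counts of 17.2, 33.0 and 34.4 in the authors' deposited tables. The log2 fold changes were 0.95 (SE 0.24, adjusted p 0.00935) and 1.04 (SE 0.26, adjusted p 0.00432) in the authors' deposited tables. In whole tissue the level was 0.80 CPM in Homecage and 1.06, 1.20 and 1.29 CPM after Handling, Restraint and Swim. Every treated mean was above Homecage there, but the changes of 0.41, 0.59 and 0.70 did not pass in the authors' deposited tables (adjusted p 0.998, 0.671 and 0.375). Dorsal means were 0.90, 0.94, 0.99 and 1.30 CPM. The regions' responses differed by 0.82 after Restraint (SE 0.37, adjusted p 0.289) and 0.55 after Swim (SE 0.37, adjusted p 0.328). The gene is not held in the ventral Handling table, nor in that of ventral against dorsal Homecage, where the dorsal mean was 21 counts. It may thus be held in the ventral Restraint and Swim tables only through the groups where it was higher.

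**Figure D4:**
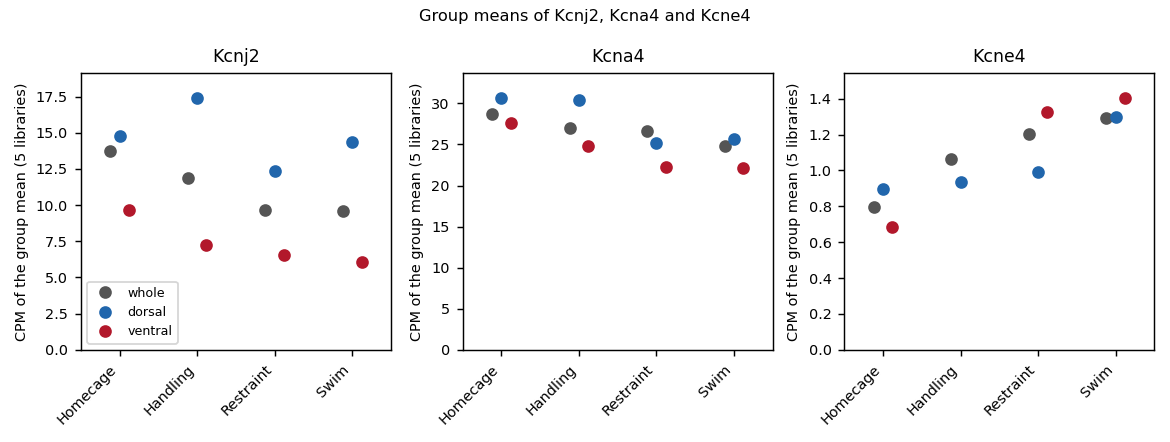
CPM of the group mean for Kcnj2, Kcna4 and Kcne4 in 12 groups of 5 libraries, by condition and region, with no error because no value per library was used. Kcnj2 falls from 9.63 to 6.10 CPM between ventral Homecage and Swim, and Kcne4 has no value in ventral Handling.

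Further genes passed in ventral tissue. After Restraint, Kcnip2 rose by 0.20 (SE 0.05, adjusted p 0.0132) in the authors' deposited table. After Swim, 5 genes were higher (6.76% against 4.65% of all genes) and 4 lower (5.41% against 2.29%). Besides Kcne4 the higher ones included Kcnh3 at 0.31 (adjusted p 0.0293), Kcnab2 at 0.18 (adjusted p 0.0386) and Kcnip2 at 0.15 (adjusted p 0.0411) in the authors' deposited table. Besides Kcnj2 and Kcna4 the lower ones were Kcnh7 (ERG3) at -0.33 (adjusted p 0.0367) and Kcnb2 (Kv2.2) at -0.30 (adjusted p 0.0057) in the authors' deposited table. The Kcnh7 call was lost with the trend on length subtracted. Exons of Gca overlap 696 bases of Kcnh7 exons on the other strand, and whether counting used strand is not given in the sources used here. Other members named here have such overlaps too, among them Kcna6 (2355 bases), Kcnma1 (1016 bases) and Kcnmb4 (674 and 355 bases).

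Transcript GC content moved with these values. Over all genes, Spearman's rho of log2 fold change on transcript GC content was 0.70 in ventral Swim and -0.60 in dorsal Swim, and over the potassium channel genes it was 0.60 and -0.50. These are correlations across genes, which are not independent replicates and share libraries. The higher genes Kcnh3, Kcnab2 and Kcnip2 have 58.7%, 57.5% and 54.8% GC, against a median of 50.2% over all genes. Kcne4, also higher, has 48.0%. The lower genes Kcna4, Kcnj2, Kcnb2 and Kcnh7 have 44.9%, 41.2%, 40.9% and 40.0%. With the GC trend subtracted, ventral Swim had 3 genes past the test in place of 9. Kcnj2 (-0.53, adjusted p 0.00863) and Kcne4 (1.08, adjusted p 0.00514) were among them, and Kcnj9 passed downwards (-0.22, adjusted p 0.00105). In ventral Restraint 5 passed, with Kcnj2 (-0.49, adjusted p 0.0274), Kcna4 (-0.27, adjusted p 0.0324) and Kcne4 (0.96, adjusted p 0.00983) kept, Kcnip2 lost and Kcnip3 and Kcnj9 gained. In both comparisons Kcne4 may be held only through the group where it was higher, so its kept calls add no support.

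**Figure D5:**
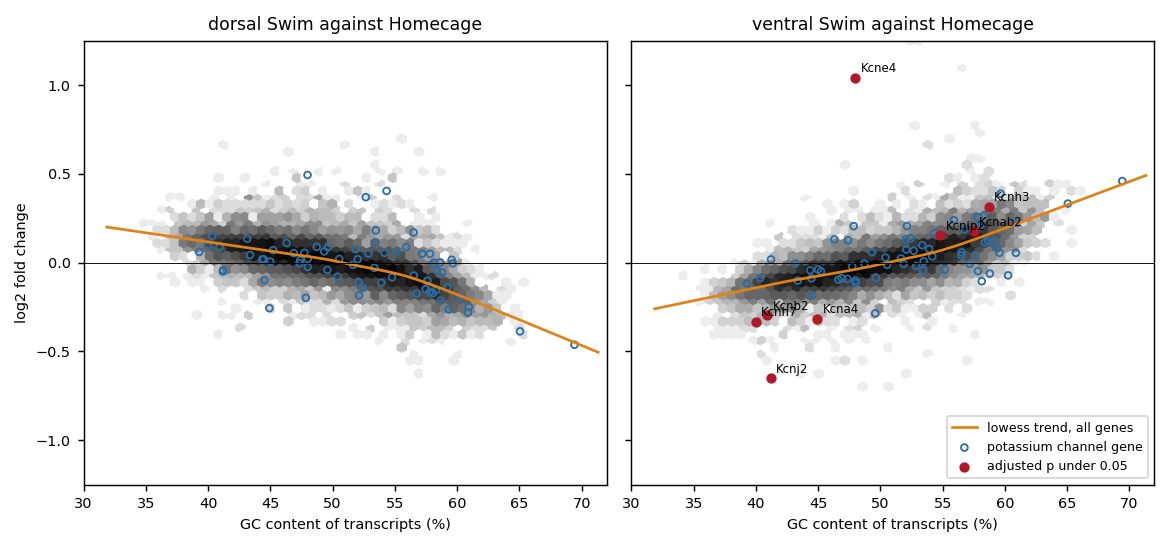
Log2 fold change after Swim in dorsal (left) and ventral (right) hippocampus against transcript GC content in percent. Grey shows the density of all genes, with values beyond the axis drawn at its edge, the line their lowess trend, circles potassium channel genes and filled points those past an adjusted p of 0.05. The trend falls in dorsal and climbs in ventral tissue, with rho of -0.60 and 0.70, and Kcne4 and Kcnj2 lie farthest from it among the filled points. Kcne4 may be held in ventral Swim only through the group where it was higher.

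The difference between the ventral and dorsal responses was tested gene by gene. At an unadjusted p under 0.05 there were 2 of 73 genes for Handling (2.74% against 2.49% of all genes). There were 12 for Restraint (16.4% against 13.0%) and 17 for Swim (23.3% against 27.2%). By the adjusted p the difference passed for 0 of 73 genes for Handling (0.0889% of all genes). It passed for 1 for Restraint (1.98% of all genes) and 11 for Swim (15.1% against 10.2% of all genes). For Swim, Kcnab2, Kcnh3, Kcng2, Kcnh2, Kcnk12, Kcnn1, Kcnip2 and Kcnk9 had a positive ventral and a negative dorsal change, Kcnb2 the reverse, and Kcnj2 a lower value in ventral tissue. With the GC trend subtracted from both tables, 0 passed for Restraint and 0 for Swim.

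After Handling in ventral tissue, the genes past the test were a pair of choroid plexus genes. Kcne2, an auxiliary subunit of KCNQ channels, and Kcnj13 (Kir7.1), both known from the choroid plexus epithelium, rose from 0.21 to 6.44 CPM and from 0.67 to 9.28 CPM. Their log2 fold changes were 4.94 (SE 0.80, adjusted p 5.9e-07) and 3.78 (SE 0.68, adjusted p 1.5e-05) in the authors' deposited table. Both were held in that table through the group where they were high. All 16 choroid plexus markers were higher in the same authors' deposited table, with a median of 3.33. The summed level of the 9 markers measured in every group was 2050 CPM in ventral Handling, 2155 CPM in dorsal Restraint and between 188 and 336 CPM in the other 10 groups. After Restraint in dorsal tissue, 5 of 11 markers were higher, and neither potassium channel gene is held in that table. The part of choroid plexus tissue in these 2 calls was not tested. In whole Restraint Kcnj13 gave 1.15 (adjusted p 0.559) in the authors' deposited table.

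Kcnma1, Kcnj10 and Kcnj8 passed the test in 0 of the 9 treatment tables. Log2 fold changes of Kcnma1 ran from -0.10 to 0.02, as given in the authors' deposited tables. Kcnj10 stayed between -0.09 and 0.09, while Kcnj8, the pore of vascular ATP-sensitive channels, ranged from -0.24 to 0.23 at a low level in the authors' deposited tables. A p that misses the threshold does not show that they did not change. Partner proteins of potassium channels outside the symbol rule numbered 22 or 23 measured per table. Of them, 0 passed in 8 treatment tables and 1, lower, in ventral Restraint (2.39% of all genes). Of 9 sodium-potassium ATPase genes, which restore the potassium gradient, 0 passed in any treatment table. The share of all genes that passed ran from 0.125% in dorsal Handling to 6.94% in ventral Swim. Between regions at rest 3 of 23 partner genes were higher and 6 lower, and of the 9 ATPase genes 1 was higher and 1 lower. Over all genes 38.4% passed there, 18.4% higher and 20.0% lower.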

How the data were processed

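Poly(A) RNA of 60 libraries in 12 groups was sequenced, and the deposited data are 10 tables of group comparisons. Per the file headers, each holds the mean estimated count of either group, a fold change (ratio), its log2 value, a p-value and an adjusted p-value. Per the submitters' processing notes, Bowtie 0.12.2 and the assembly mm8 are named with no role, while no source used here names the counting program, the scaling or the test. The labels do not say whether same-numbered libraries share a mouse. With the test not named, what spread the p-values measure is not known, and the implied SEs rest on them.

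Repeated rows (144 to 148 per table) were dropped, leaving 13610 to 13784 genes. The smallest sum of both means in a table was 22.0 counts, so lower genes are not seen. Own Benjamini-Hochberg values matched the deposited ones. Group totals of 19.9M to 25.0M counts set the depth. Planned count tests per library could not be run on group means, and the authors' adjusted p at 0.05 was used. CPM came from group means over their totals. The implied SE was the absolute log2 fold change over the normal quantile of its p. The difference between regions was divided by its own SE, the square root of the sum of both squared SEs, referred to a normal distribution and adjusted over all genes. It ignores any pairing, and was tested on simulated data. Those data had independent errors drawn from the implied SEs and no GC trend. They thus could not test the effect of pairing, of wrong SEs or of GC content. GC content, length and position came from GENCODE M21 (GRCm38), with about 99.8% of genes matched, and promoters from RefSeq (GRCm38.p6). Alternatives subtracted the lowess trend (fraction 0.3) on GC content or on length, used total-count scaling, left out genes with a mean under 100, or left out choroid plexus markers. Tools were Python 3.11.15, pandas 2.3.3, statsmodels 0.14.6 and scipy 1.17.1.

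Named genes are those past the test in each comparison (the 10 lowest adjusted p per direction between regions), the highest of each family, those past the regional difference, and some always given. Some genes are counted but not reported singly here. Other genes named between regions were chosen after their values were seen. The members and lists were chosen with earlier results of these data known.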

Additional observations from a re-analysis of the deposited data

Results flagged for a closer look

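The ventral and dorsal responses differed, by the test of the difference itself, for the genes below after Swim. The ventral minus dorsal log2 fold changes were 0.33 for Kcnab2, 0.53 for Kcnh3, 0.72 for Kcng2, 0.47 for Kcnh2, 0.92 for Kcnk12, 0.38 for Kcnn1, 0.24 for Kcnip2 and 0.40 for Kcnk9, with the ventral change above the dorsal one in each case. They were of the other sign, -0.60 for Kcnj2 and -0.39 for Kcnb2. None of these passed with the trend on transcript GC content subtracted. Kcnk12 and Kcng2, which have the highest values, have transcripts of 69.4% and 65.0% GC. Kcnk9, positive too, has 47.9%, below the median of 50.2% over all genes, while Kcnab2, Kcnh3, Kcnh2, Kcnn1 and Kcnip2 are above it.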

How the results depend on the processing

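With the GC trend subtracted, the number of potassium channel genes called became 0 in whole Swim, 1 in dorsal Restraint, 1 in dorsal Swim and 3 in ventral Swim, and 0 for the regional difference after Restraint and 0 after Swim. With the length trend subtracted, the counts became 0 in whole Swim, 1 in dorsal Restraint and 1 in dorsal Swim. Leaving out genes with a mean under 100 gave 1 in ventral Handling, because Kcne2 was no longer tested. It also ended the Kcne4 calls in ventral Restraint and ventral Swim, because that gene was no longer tested. The cause of the other changes was not tested. Ventral against dorsal Homecage had 44 calls with the GC trend subtracted, 40 of them shared with the 46 reported, 44 with the length trend, 43 with the filter and 46 with total-count scaling, of which 43 were shared (Kcna1, Kcnh5 and Kcnk13 lost, Kcng3, Kcnmb1 and Kcns1 gained) and 25 were higher and 21 lower in place of 22 and 24. With the length trend subtracted, ventral Swim lost Kcnh7, leaving 8 calls. Kcnip2 in ventral Swim had an adjusted p of 0.0523 under total-count scaling. Leaving out choroid plexus markers changed no call. That setting drops only the marker genes and keeps every other fold change and SE. It thus cannot test the part of choroid plexus tissue in any call. No paired analysis was possible because the tables hold group means and no values of single libraries, and replicates could not be left out for the same reason. Kcne2, Kcnj13, Kcnh8, Kcnmb1 and Kcne4 are not held in every table, and no change in them was tested where they are missing.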
